A study of Homo sapiens with 38 samples.

Results

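The regions described here are 4108 places in the genome of stimulated Jurkat cells where BHLHE40 was listed as bound without GATA3, on acetylated chromatin, and away from the ends of gene records. They are called members below. They were chosen from the deposited lists by 4 conditions: a line of the BHLHE40 list, no overlap with a line of the GATA3 list, an overlap of at least 1 bp with a line of the H3K27ac list, and a summit more than 1 kb from both ends of every RefSeq gene record. Of 26205 BHLHE40 regions, 12328 (47.0%) overlapped no GATA3 region, 9262 (35.3%) also overlapped an H3K27ac region, and 4108 (15.7%) met all conditions. Because these values chose the members, the absence of GATA3, the presence of H3K27ac and the distance from gene record ends are no findings here.

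BHLHE40 is a basic helix-loop-helix transcription factor that binds the E-box sequence CACGTG as a dimer and mostly acts as a repressor, with known roles in the circadian clock and in cytokine production by T cells. GATA3 is a zinc finger factor that directs T-cell development and binds GATA sequences. H3K27ac, acetylation of lysine 27 of histone H3, marks active promoters and active enhancers, so an acetylated region away from genes is often read as a candidate enhancer.

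The series applied chromatin immunoprecipitation and sequencing (ChIP-seq) to Jurkat, an established human T-cell acute lymphoblastic leukaemia line. The members rest on 3 of its 19 groups, each of 2 samples of wild-type cells that carried a control lentivirus (Ctrl_LV) and were stimulated with 50 ng/ml PMA and 500 ng/ml ionomycin, which together mimic signalling through the T-cell receptor. The labels give the stimulation as 5 hours in one field and as 2 hours in another. Cells edited with a guide for an element called RE4 (sg70_P260), their guide controls (sgCtrl_P258) and cells over-expressing BHLHE40 (BHLHE40_LV) were not analysed here, so no effect of an edit or of BHLHE40 level was measured.

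Each list stands for its group as a whole. There is therefore no value per sample, no test between conditions was possible, and the depth of the samples is unknown. The values that follow describe peaks within 1 list. Intervals are 95% Wilson intervals for shares and order-statistic intervals for medians, and they cover counting only, since neighbouring regions are not independent replicates. As a check of the cell type, all 15 T-cell marker genes had an H3K27ac region with a −log10 q of at least 5 within 1 kb of the gene record, against 1 of 9 B-cell, 1 of 10 myeloid, 1 of 10 erythroid and 4 of 14 epithelial, liver and neuronal markers, and 58.1% of all protein-coding records.

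The label "distal" held for the ends of gene records but not for every annotated transcription start. RefSeq lists 35116 starts in the promoter table used here (build GRCh38.p14, chromosome 8 not used here), and 29.1% of them do not lie at the end of their own gene record, because a gene with several promoters has starts inside its record. Among the 3949 members on chromosomes with listed starts, 301 had a start within 250 bp of the summit, or 7.62% (interval 6.84 to 8.49), beside 24.6% of all BHLHE40 regions. A start lay within 1 kb for 461 members, or 11.7% (10.7 to 12.7), and over 10 kb away for 2426, or 61.4% (59.9 to 62.9). The same share within 1 kb was 79.0% for BHLHE40-only acetylated regions at gene ends, 4.30% for distal acetylated regions shared with GATA3, and 4.12% for distal BHLHE40-only regions without H3K27ac. Members were chosen away from record ends, where 24900 of the 35116 starts lie. Their lower share than the whole list and regions at gene ends is therefore no finding. The other distal classes met the same condition.

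**Figure D1:**
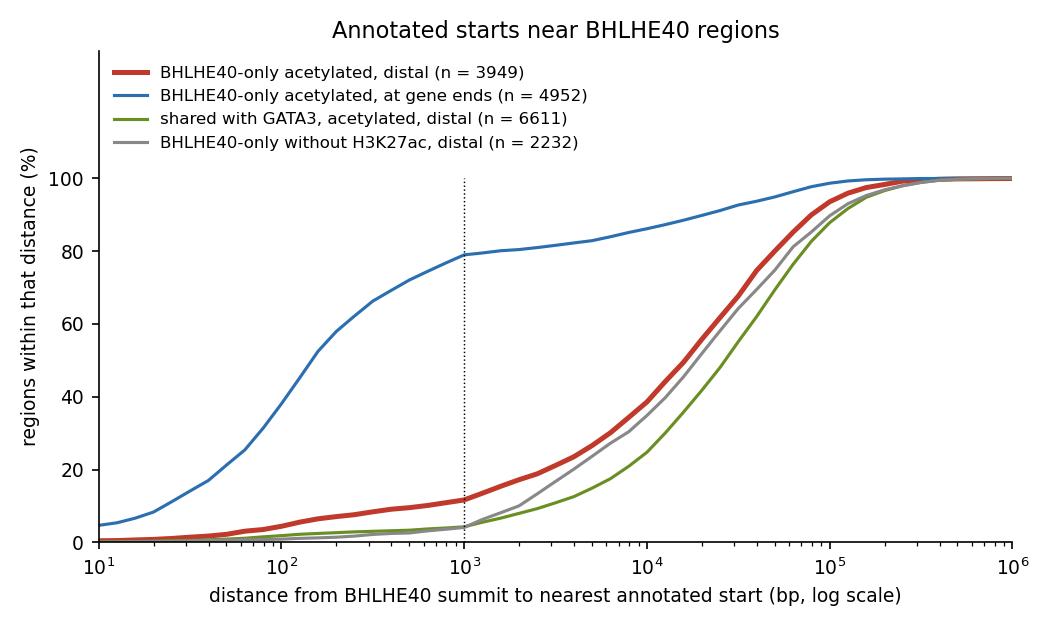
Share of regions (vertical axis, percent) with an annotated start within a given distance of the BHLHE40 summit (horizontal axis, bp, log scale), for the members and 3 other classes of BHLHE40 region; the dotted line marks 1 kb. The curve of the members lies above those of the other distal classes at 1 kb, at 11.7% against 4.30% and 4.12%. It lies far below that of regions at gene ends, which the choice of members away from record ends brings about.

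These members at internal promoters are also the ones whose sequence was at hand, since the RefSeq promoter table holds 250 bases before and 50 bases after each start. The windows of 262 starts held the summit of a member, for 245 distinct members. Under the 1 kb condition, no start at the end of a gene record can hold a member summit in its window. All 262 starts therefore lay away from the ends of their own gene records by choice, by a median of 7330 bp. The canonical E-box CACGTG, which reads the same on both strands, was present in 29 of the 262 windows, or 11.1% (7.82 to 15.4), beside 7.26% of all 35116 windows of the same length. The 29 windows belong to 26 members. In these windows the centre of the nearest CACGTG lay a median of 39.5 bp (15.5 to 63.5) from the BHLHE40 summit, and within 50 bp in 17 of 29 (58.6%). The median was 42.5 bp for BHLHE40-only acetylated regions at gene ends, with 56.8% within 50 bp. For acetylated regions shared with GATA3 it was 46 bp, with 52.0%. The length of the windows limits these distances. The 8 strongest members with CACGTG in the 81 bases centred on the summit are shown first, each read 5′ to 3′ in the direction of its gene, with the E-box in capitals and the summit at base 41.
CLUAP1, chr16:3500892-3500972, plus strand: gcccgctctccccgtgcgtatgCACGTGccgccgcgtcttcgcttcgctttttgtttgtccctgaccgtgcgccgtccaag
NEMP1, chr12:57078750-57078830, minus strand: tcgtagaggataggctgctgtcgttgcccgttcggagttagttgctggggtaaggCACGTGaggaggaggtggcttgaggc
UVSSA, chr4:1346970-1347050, plus strand: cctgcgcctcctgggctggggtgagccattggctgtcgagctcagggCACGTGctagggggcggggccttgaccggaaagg
AEN, chr15:88621273-88621353, plus strand: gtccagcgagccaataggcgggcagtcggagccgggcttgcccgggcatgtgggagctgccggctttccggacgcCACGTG
WDR81, chr17:1724646-1724726, plus strand: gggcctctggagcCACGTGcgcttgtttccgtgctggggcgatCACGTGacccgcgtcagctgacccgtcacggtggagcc
VGF, chr7:101165558-101165638, minus strand: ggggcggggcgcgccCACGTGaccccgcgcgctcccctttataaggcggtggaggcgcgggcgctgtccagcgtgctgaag
TCHP, chr12:109900541-109900621, plus strand: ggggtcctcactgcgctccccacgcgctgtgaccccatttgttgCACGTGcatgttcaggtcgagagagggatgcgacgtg
OPRL1, chr20:64092466-64092546, plus strand: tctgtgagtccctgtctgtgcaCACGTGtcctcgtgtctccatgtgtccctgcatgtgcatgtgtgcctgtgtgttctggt

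The BHLHE40 signal value, the authors' measure of enrichment at a peak, differed widely among these 8. It was 119.7 at CLUAP1, which encodes a protein of transport in cilia, and 43.2 at NEMP1, which encodes a nuclear envelope protein. It was 12.6 at UVSSA, a gene of transcription-coupled DNA repair, 12.2 at AEN, a nuclease gene, and 11.3 at WDR81, a gene of endosomal traffic. It was 10.8 at VGF, which encodes a neuropeptide precursor, 9.10 at TCHP and 8.71 at OPRL1, the nociceptin receptor gene. The WDR81 stretch holds 2 copies of the E-box and the others hold 1. Strong members also occurred without this sequence nearby. The 4 strongest members with no CACGTG anywhere in the 300-base window are shown for comparison, from the same table and build and in the same layout.
HNRNPUL1, chr19:41264288-41264368, plus strand: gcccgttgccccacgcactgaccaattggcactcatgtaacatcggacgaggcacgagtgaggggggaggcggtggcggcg
DLG4, chr17:7205251-7205331, minus strand: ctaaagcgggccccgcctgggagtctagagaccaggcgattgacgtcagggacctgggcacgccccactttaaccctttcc
CUL4B, chrX:120561034-120561114, minus strand: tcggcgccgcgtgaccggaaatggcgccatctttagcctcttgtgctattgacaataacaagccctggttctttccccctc
EIF4ENIF1, chr22:31489907-31489987, minus strand: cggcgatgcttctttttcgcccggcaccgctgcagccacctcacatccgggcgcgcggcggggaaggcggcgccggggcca

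Their signal values were 42.7 at HNRNPUL1, an RNA-binding protein gene, 38.7 at DLG4, which encodes a synaptic scaffold protein, 29.0 at CUL4B, a ubiquitin ligase scaffold gene, and 27.3 at EIF4ENIF1, whose protein binds the cap-binding factor eIF4E. The DLG4 stretch holds TGACGTCA, the palindrome known as the cyclic AMP response element. The HNRNPUL1 stretch holds CCAAT, and so, on one strand or the other, do the UVSSA and AEN stretches that hold CACGTG. Of 206 members with all 81 bases inside a window, 12 had CACGTG in the stretch, 11 had it elsewhere in the window, and 183 had none. By signal value, CACGTG was found in 5 of 87 windows of the weakest members (2.398 to 6.91), 12 of 87 of the middle ones (6.97 to 11.3) and 12 of 88 of the strongest (11.4 to 119.7). The intervals of these shares overlap.

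Other sequences were searched in the same windows on both strands, as a description of what the promoters hold. The GC box GGGCGG was found in 67.6% (61.7 to 72.9) of the 262 windows of members, beside 45.0% of all windows and 77.8% of windows with the summit of a BHLHE40-only acetylated region at a gene end. CCGGAAG, a core bound by ETS family factors, was found in 17.6% (13.4 to 22.6), beside 10.3% of all windows. It was found in 27.6% (26.1 to 29.2) of the windows with a summit at gene ends and 30.6% (28.9 to 32.3) of those with a summit shared with GATA3. Windows with the summit of a BHLHE40 region without H3K27ac held it in 8.50% (5.83 to 12.25). Members thus lay above all windows and those without H3K27ac, and below the 2 other acetylated classes. The GATA sequence AGATAA was found in 1.91% (0.818 to 4.39), beside 10.3% of all windows and 7.07% of windows with the summit of an acetylated region shared with GATA3. Members were chosen for lacking GATA3, so this low share is no independent finding. The AP-1 sequence TGANTCA was found in 4.198% (2.36 to 7.36), beside 7.71%. CATGTG, a degenerate E-box, was found in 9.54% beside 11.1%, CCAAT in 35.5% beside 34.6%, and TGACGTCA in 3.05% beside 1.85%. The longer forms TCACGTGA and CACGTGAC, which contain CACGTG, were found in 4 and 8 windows. For TCACGTGA this was 1.53% (0.595 to 3.86), beside 0.980% of all windows and 3.37% of those with a summit at gene ends. For CACGTGAC it was 3.05% (1.555 to 5.91), beside 2.403% and 7.74%. Both intervals hold the share of all windows, and that of CACGTGAC lies below the share at gene ends. The windows of members had a median GC content of 66.0% and those of all starts 58.7%, and the part of base composition in these shares was not tested. Windows holding the summit of a BHLHE40-only acetylated region at a gene end were similar in GC content, at 67.2%, and held CACGTG in 14.5% (13.3 to 15.7).

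The members near a start also overlapped H3K27ac regions of higher −log10 q than the rest did. The 461 members within 1 kb of an annotated start had a median −log10 q of 20.5 (17.1 to 23.2) for the strongest H3K27ac region they overlapped, and the 3488 members farther away had 7.53 (7.17 to 7.86). Their median width was 919 bp (869 to 961) against 640.5 bp (630 to 654). The part of width in the difference in −log10 q was not tested. The summit lay inside an H3K27ac region in 79.6% (75.7 to 83.0) against 65.1% (63.5 to 66.7). BHLHE40 signal values differed less, with medians of 8.36 (8.03 to 8.88) and 7.55 (7.44 to 7.72).

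Over all members the BHLHE40 signal value had a median of 7.67 (7.52 to 7.79), with the 10th and 90th percentiles at 4.82 and 14.6 and extremes of 1.70 and 119.7. The median was 9.03 (8.86 to 9.16) for the 5154 BHLHE40-only acetylated regions at gene ends, 12.1 (11.9 to 12.4) for the 6952 distal acetylated regions shared with GATA3, and 6.92 (6.80 to 7.01) for the 2319 distal BHLHE40-only regions without H3K27ac. A score of 1000, the highest the authors' list gives for repeatability between samples, was held by 56.0% of members (54.4 to 57.5), 69.8% of regions at gene ends, 82.8% of shared distal regions and 32.4% of those without H3K27ac. Member width had a median of 662 bp (651 to 675), and the widths of these other classes had medians of 952, 751 and 480 bp. In signal, score and width alike, the members stood below the acetylated regions at gene ends and those shared with GATA3, and above the unacetylated ones. No test of these differences was possible within 1 list.

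**Figure D2:**
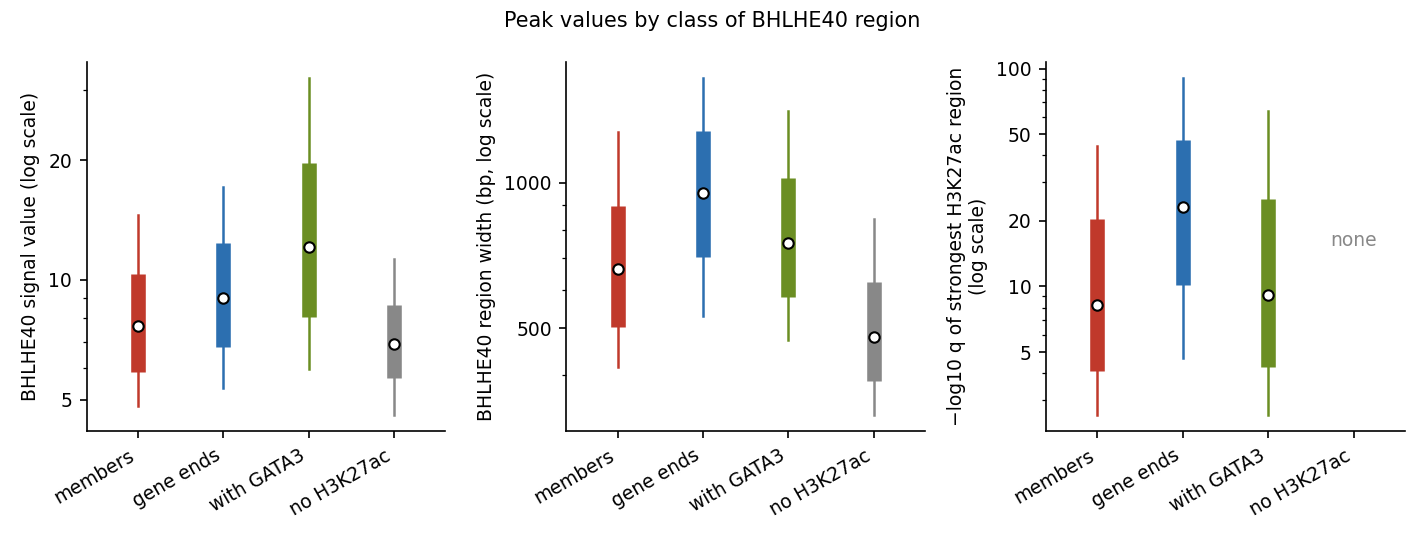
BHLHE40 signal value, BHLHE40 region width in bp and −log10 q of the strongest overlapped H3K27ac region (vertical axes, log scales) for the members, BHLHE40-only acetylated regions at gene ends, distal acetylated regions shared with GATA3, and distal BHLHE40-only regions without H3K27ac. Circles are medians, thick bars run from the 25th to the 75th percentile and thin lines from the 10th to the 90th; members have medians of 7.67, 662 bp and 8.18, and the last class has no H3K27ac by definition.

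The −log10 q of the H3K27ac regions that members overlapped was mostly modest. The strongest overlapped H3K27ac region had a median −log10 q of 8.18 (7.77 to 8.46), reached 5 in 67.8% of members (66.4 to 69.2) and reached 50 in 8.20% (7.40 to 9.08). The corresponding medians were 23.1 for BHLHE40-only regions at gene ends, of which 23.4% reached 50, and 9.15 for shared distal regions, of which 12.8% did. The signal value of these H3K27ac regions differed less between distal classes. Its median was 4.168 (4.098 to 4.247) for members, 4.185 (4.119 to 4.244) for shared distal regions and 6.39 (6.30 to 6.50) at gene ends. The strongest H3K27ac region overlapped by a member was a median of 486 bp wide. H3K27ac regions covered a median of 421.5 bp (411 to 433) or 65.0% (63.8 to 66.3) of a member. Across the 4108 members the BHLHE40 signal value and the H3K27ac −log10 q had a Spearman's rho of 0.168. The widths of the BHLHE40 and H3K27ac regions had one of 0.305. All points share the same pair of lists, and a wide region can overlap a wide one more readily.

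The summit of BHLHE40 sat inside the acetylated interval for most members but not all. It lay inside an H3K27ac region in 2742 members, or 66.7% (65.3 to 68.2), between H3K27ac regions present on both sides within 1 kb in 501, or 12.2% (11.2 to 13.2), and beside one on a single side in 858, or 20.9% (19.7 to 22.2). In 7 members none was found within 1 kb of the summit at steps of 50 bp. At gene ends the summit was inside in 79.3% (78.2 to 80.4), and in shared distal regions in 66.2% (65.0 to 67.3). Around the summit of members the coverage was flat, with 64.8% at 150 bp before, 66.7% at the summit and 66.8% at 150 bp after. In shared distal regions it was 69.4% on both sides and 66.2% at the summit. It fell to 30.1% and 31.5% at 500 bp on either side of members and to 8.69% and 8.54% at 1000 bp.

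**Figure D3:**
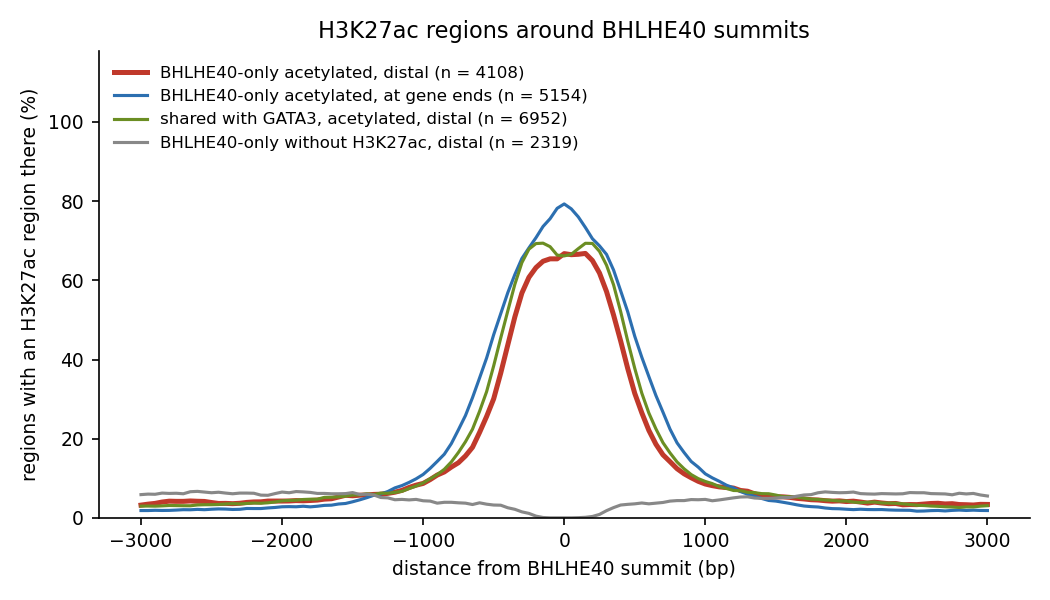
Share of regions (vertical axis, percent) that have an H3K27ac region at each distance from the BHLHE40 summit (horizontal axis, bp) for the 4 classes. Members reach 66.7% at the summit with a flat top, regions at gene ends 79.3% with a single peak, and shared distal regions 69.4% at 150 bp on both sides with 66.2% at the summit.

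Members lay outside GATA3 regions by choice, and most lay far from them. The nearest GATA3 summit was a median of 13760 bp away (13070 to 14730). It was within 1 kb for 136 members, or 3.32%, within 5 kb for 1035, or 25.2% (23.9 to 26.6), and over 50 kb away for 742, or 18.1% (16.9 to 19.3). BHLHE40-only regions at gene ends had a median of 22390 bp, and distal ones without H3K27ac one of 14630 bp (13090 to 15950). Distances between regions below are counted so that 1 bp means touching. Members nearest to the GATA3 condition lay 4 bp from a GATA3 region near SH3BP5 and near DUSP2 and 10 bp from one near JARID2. Their signal values were 8.16, 15.1 and 4.95. The regions that just failed it shared 24 bp with GATA3 regions near MAML3, 34 bp near ZMIZ1 and 37 bp near FOS, with signal values of 2.39, 9.36 and 20.7. For H3K27ac, members just inside shared 1 bp near ZC3H18 and 2 bp near PITPNM2 and ASAP1 (signal values 13.0, 9.21 and 8.78). Just outside, a region near PSTPIP1 touched an H3K27ac region without overlap (8.54). Another, inside the BHLHE40 gene, lay 5 bp from its nearest H3K27ac region (8.997). For gene ends, members at MYRF, SLC51A and SAFB2 had summits 1 to 2 bp past the limit of 1000 bp (8.14, 7.79 and 6.80), and regions at PYM1, MYL6 and GRK6 had them at 1000, 1000 and 999 bp (5.61, 5.29 and 10.2).

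Most members lay inside genes. Of the 4102 members on chromosomes, 3017, or 73.5% (72.2 to 74.9), had the summit inside a gene record and 1085 (26.5%) lay between records. A protein-coding record held the summit of 2654, or 64.7% of the 4102. The table gives no exons, so exons and introns cannot be told apart. The share inside any record was 71.2% (70.1 to 72.2) for shared distal regions and 69.3% (67.4 to 71.1) for unacetylated distal ones. It was 56.9% for BHLHE40-only acetylated regions at gene ends and 66.0% for the whole BHLHE40 list. Records other than protein-coding ones that held a summit were mostly long noncoding RNA genes. The nearest record end was a median of 7968 bp from the summit.

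The strongest member lay at CLUAP1 on chromosome 16 (3500569 to 3501469), with a signal value of 119.7, rank 22 of the whole BHLHE40 list. Its summit was 72 bp from an annotated start, 39535 bp from the nearest GATA3 summit and not inside an H3K27ac region, and the acetylated region it touched had a −log10 q of 3.15. The second, at 67.6 and rank 154, lay on chromosome 2 (230905260 to 230905941), 1690 bp from GPR55, a lipid receptor gene. The third lay inside BCL3, an atypical IκB protein of the NF-κB pathway, on chromosome 19 (44752115 to 44753829), with 61.4 and rank 201, 4854 bp from the nearest annotated start. The fourth, at 61.1, was 8748 bp from CRELD2, an endoplasmic reticulum stress gene on chromosome 22 (49935983 to 49937055).

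The next members in strength were inside SBF1 (51.5, chromosome 22, 50469307 to 50470648), 3012 bp from the potassium channel gene KCNN1 (50.1, chromosome 19, 17947196 to 17948806) and inside SNX29 (50.0, chromosome 16, 12322387 to 12323871). They were followed by one 4403 bp from MEF2D, a MADS-box transcription factor gene (45.3, chromosome 1, 156504373 to 156505986), and by those at internal starts of NEMP1 (43.2) and HNRNPUL1 (42.7). The −log10 q of the overlapped H3K27ac region did not follow this order. It was 242.9 at MEF2D, 168.9 at HNRNPUL1 and 104.9 at SNX29, but 10.4 near GPR55 and 13.8 near KCNN1. Of these 10 members, 3 had a start within 250 bp. Among all members that share was 5.38% in the 1027 with the lowest signal values (interval 4.14 to 6.97) and 11.1% in the 1027 with the highest (9.27 to 13.2).

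Among the widest members, one of 11542 bp on chromosome 14 (21191781 to 21203322), 17137 bp from HNRNPC, had a signal value of 6.19. Another of 9412 bp on chromosome 11 (44622756 to 44632167), 4487 bp from CD82, had 11.1. Each of these overlapped a single H3K27ac region, with a −log10 q of 3.76 and 2.58.

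Members were spread thinly over many genes. Each member was assigned to the protein-coding record that held its summit or else to the nearest one at any distance, and counts at a gene below are counts of assigned members. In this way 2981 of 20050 protein-coding genes, or 14.9%, had at least 1. Of these, 2283 had 1 member, 463 had 2 and 142 had 3, and the most was 11. The share with a member rose with the length of the record, from 6.41% (5.81 to 7.08) of genes up to 10 kb to 28.2% (26.8 to 29.8) of those over 100 kb. In all, 677 members, or 16.5% (15.4 to 17.6), had another member within 10 kb.

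Among the 10 genes with the most members, ZMIZ1, a coactivator gene of the PIAS-like family, had 11 members, with signal values from 7.29 to 19.7, of 19 BHLHE40 regions assigned to it. SEMA4D, which encodes the T-cell semaphorin CD100, had 9 of 18, from 4.63 to 16.5. DNMT3A, a DNA methyltransferase gene, had 8 of 10, from 4.66 to 15.6, and BCOR, a corepressor gene, had 8 of 25, from 7.32 to 14.8. GALNT2, a glycosyltransferase gene, had 8 of 26 and PRKCH, the gene of protein kinase C eta, 8 of 27. The deacetylase gene HDAC4 had 7 of 27, the zinc finger factor gene KLF13 7 of 10, CCDC88C 7 of 17 and MACF1 7 of 16. These are long genes, with records of 108.8 to 403 kb, beside a median of 24.1 kb for all protein-coding records.

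Runs of neighbouring members, linked by gaps of at most 10 kb, were short. The longest held 5 members over 18593 bp in CCDC88C, with signal values from 3.85 to 9.64. Runs of 4 lay at HDAC7 (11670 bp, strongest 23.4), across NR1D1 and MSL1 (17133 bp, strongest 21.9), at KLF13 (14599 bp, strongest 16.7), at BCOR (11705 bp, strongest 13.0) and at SLC19A1 (13195 bp, strongest 8.13). HDAC7 encodes a deacetylase prominent in thymocytes, and NR1D1 encodes the clock repressor REV-ERBα.

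The shares of T-cell signalling genes with a member were above the 14.9% of all protein-coding genes, and their records were longer than the median of 24.1 kb. Among genes of protein kinase C, an enzyme that PMA activates, and of Ras and MAPK feedback, 23 of 29 had a member (79.3%, 61.6 to 90.1), with a median record of 76.7 kb. PRKCH led with 8, followed by the MAP kinase phosphatase gene DUSP10 with 6 (3.95 to 16.6), PRKCA with 4 and DUSP5 with 3, its strongest at 27.8 and 37272 bp from the record. In T-cell receptor signalling 19 of 30 genes had a member (63.3%, 45.5 to 78.1), with a median record of 46.2 kb. They included the phosphatase gene PTPRC with 7, although its strongest member (8.71) lay 407724 bp from the record, the receptor gene CD6 with 4 (strongest 23.6, inside the record), the kinase gene FYN with 3 (strongest 19.9) and the phosphatase gene PTPN6 with 3 (strongest 13.4). Beside these shares, 28.2% (26.8 to 29.8) of all protein-coding genes with records over 100 kb had a member. An H3K27ac region with a −log10 q of at least 5 lay within 1 kb of 27 of 29 and 29 of 30 genes. It did so for 58.1% of all protein-coding records. The part of record length, of acetylation and of assignment at any distance in these shares was not tested.

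Another way to read a list is by the share of its BHLHE40 regions that were members, which was 15.7% over all protein-coding genes. It was 49 of 213 regions (23%) for protein kinase C, Ras and MAPK genes, 37 of 216 (17.1%) for T-cell receptor signalling, 67 of 492 (13.6%) for T-lineage transcription factors, and 14 of 86 (16.3%) for costimulatory and checkpoint receptors. It was 20.9% for AP-1, EGR and NR4A genes, 20.6% for NF-κB genes, 17.9% for cytokines and chemokines, and 11.5% for E-box binding bHLH-zip factors. The extremes among the 16 pathway lists were glycolysis and glucose uptake, with 16 of 50 (32.0%), and cytosolic ribosomal proteins, with 4 of 130 (3.08%).

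**Figure D4:**
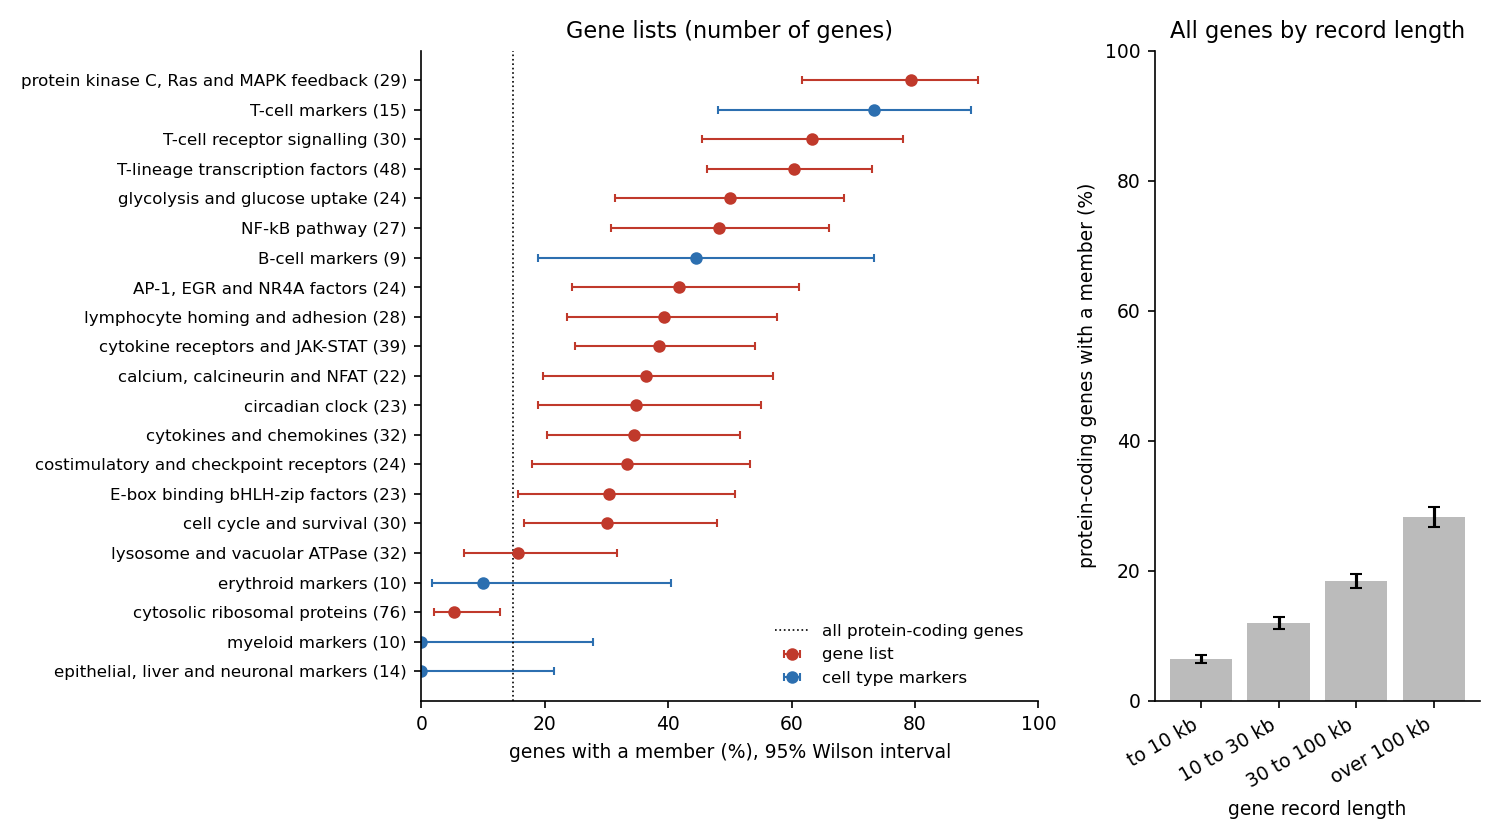
Left, share of the genes of each list with at least 1 member (horizontal axis, percent, with 95% Wilson intervals; number of genes in brackets), for pathway lists and cell type marker lists; the dotted line is the 14.9% of all protein-coding genes. Right, the same share for all protein-coding genes by length of the gene record (bars with 95% Wilson intervals); it runs from 6.41% to 28.2%, and the lists from 0% to 79.3%.

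Transcription factor genes of the T lineage had 67 members at 29 of 48 genes (60.4%, 46.3 to 73.0), beside 14.9% of all protein-coding genes. Their median record was 86.1 kb, beside 24.1 kb, and members were 13.6% of their BHLHE40 regions, beside 15.7%. An H3K27ac region with a −log10 q of at least 5 lay within 1 kb of 44 of the 48, beside 58.1% of all records. The part of record length and of acetylation in this share was not tested. BACH2, a repressor gene, had 6, from 4.98 to 14.6, among 54 BHLHE40 regions, and TOX had 6 among 30. SATB1, a chromatin organiser gene, had 5, its strongest (15.2) 317 bp from an annotated start, and LEF1, a Wnt pathway factor gene, had 5 with a strongest of 14.1. Of the 15 T-cell marker genes, with a median record of 33.9 kb, 11 had a member (73.3%, 48.05 to 89.1), beside the same 14.9%. Of 9 B-cell markers, with a median record of 18.2 kb, 4 had 1 each (44.4%, 18.9 to 73.3). These 4 members had signal values between 7.20 and 9.49: inside BLK, 1682 bp from CD79A, 67253 bp from PAX5 and 184331 bp from EBF1. No member was assigned to the 10 myeloid or the 14 epithelial, liver and neuronal markers, where 3 and 6 BHLHE40 regions lay in all, and EPOR (13.6) held the only one at 10 erythroid markers.

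Genes of the immediate-early, NF-κB and calcium lists had at most 4 members each. Of 24 AP-1, EGR and NR4A genes, the immediate-early transcription factors, 10 had a member (41.7%, 24.5 to 61.2), beside 14.9% of all protein-coding genes. Their median record was 7.18 kb, and 6.41% of all protein-coding genes with records up to 10 kb had a member. ATF3 had 3, the strongest at 32.3 and 6417 bp from the record, NR4A1 had 3 inside the record (2.78 to 16.7), IER2 had 3 (strongest 12.0) and NR4A3 had 3 (strongest 9.45). Among NF-κB genes 13 of 27 had a member (48.15%, 30.7 to 66.0), with a median record of 27.8 kb. The inhibitor gene TNFAIP3 had 4 (strongest 10.2), REL 3 (9.98) and BCL3 2. In the calcium and NFAT list 8 of 22 genes had a member (36.4%, 19.7 to 57.05), with a median record of 136 kb. Of all protein-coding genes with records over 100 kb, 28.2% had one. Members were 14 of the 82 BHLHE40 regions of this list (17.1%), beside 15.7% over all protein-coding genes. There were 4 at ITPR1 (strongest 13.6), 2 at CABIN1 (22.8), 2 at NFATC1 (10.4) and 2 at RCAN3 (6.42).

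Of 32 cytokine and chemokine genes 11 had a member (34.4%, 20.4 to 51.7), beside 14.9% of all protein-coding genes. Their median record was 5.11 kb, and 6.41% of all protein-coding genes with records up to 10 kb had a member. The 4 cytokine and chemokine genes with 2 members each had both outside their short records. CSF2 had 2 (strongest 15.7, 23122 bp from the record), CCL1 had 2 (13.6, 19515 bp), IL21 had 2 (5.93, 67450 bp) and XCL2 had 2 (5.13, 4998 bp). Of 39 cytokine receptor and JAK-STAT genes 15 had a member (38.5%, 24.9 to 54.1), with a median record of 36.6 kb. IFNAR2 had 3 (strongest 7.07), IL1R1 2 (13.9), STAT5B 2 (6.42) and IL21R 1 (15.1, 605 bp from an annotated start). Of 24 costimulatory and checkpoint receptor genes 8 had a member (33.3%, 18.0 to 53.3), with a median record of 24.8 kb. SLAMF6 had 4 (strongest 7.87), CD40LG 3 (8.95), CD27 2 (16.4) and CTLA4 1 (11.4, 56007 bp from the record). Of 28 homing and adhesion genes 11 had a member (39.3%, 23.6 to 57.6), with a median record of 17.5 kb. CXCR4, a chemokine receptor gene, had 5 (9.18), none of them inside the record and the strongest 187569 bp from it. ITGAE had 3 (8.53), ITGB2 2 (13.6) and S1PR1 2 (10.8). Members were 17.9%, 19.8%, 16.3% and 16.1% of the BHLHE40 regions of these 4 lists in turn, beside 15.7% over all protein-coding genes.

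Clock genes include known targets of BHLHE40. Of 23 found, 8 had a member (34.8%, 18.8 to 55.1), beside 14.9% of all protein-coding genes, and their median record was 36.1 kb. Members were 14 of the 77 BHLHE40 regions of this list (18.2%), beside 15.7% over all protein-coding genes. NR1D1 had 3 of its 4 BHLHE40 regions as members (12.6 to 21.9), RORA had 3 of 16 (strongest 7.97), CSNK1D had 2 (11.1) and TEF had 2 (11.0). Of 23 genes of E-box binding bHLH-zip factors, 7 had a single member each, led by TFAP4 (18.0), MNT (17.1, with a −log10 q of 157.7 for H3K27ac), MYCN (13.6) and MGA (13.1, 53 bp from an annotated start).

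The shares of genes with a member in metabolic, cell cycle and ribosomal lists spanned a wide range, beside 14.9% of all protein-coding genes. In cell cycle and survival 9 of 30 genes had a member (30%), with 5 at CDK6 (strongest 5.31), 3 at CDKN2C (10.3), 2 at CCND3 (23.8, 197 bp from an annotated start) and 2 at CCNE1 (13.9). In glycolysis and glucose uptake 12 of 24 did (50%, 31.4 to 68.6), with a median record of 26.2 kb. An H3K27ac region with a −log10 q of at least 5 lay within 1 kb of 23 of the 24, beside 58.1% of all records. PFKFB3 (22.6), the glucose transporter genes SLC2A1 (9.60) and SLC2A3 (9.08), and PGAM1 (8.11) had 2 members each. Among lysosome and vacuolar ATPase genes 5 of 32 had a member (15.6%, 6.86 to 31.7), near the 14.9% of all protein-coding genes. They included CTSD with 2 (7.67) and SQSTM1 with 1 (6.18). Of 76 cytosolic ribosomal protein genes 4 had a member (5.26%, 2.07 to 12.8): RPS19 (10.5, inside the record), RPL34 (8.35, 193813 bp away), RPS21 (7.20, 4192 bp away) and RPLP1 (5.76, 212908 bp away). All 76 had a BHLHE40 region within 1 kb of the record, and their records were short, with a median of 4.90 kb. Of all protein-coding genes with records up to 10 kb, 6.41% had a member.

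Around the genes of the factors themselves the regions were too few to set against the 15.7% of all BHLHE40 regions that were members. Within 50 kb of BHLHE40 lay 8 BHLHE40 regions, of which 1 was a member: chromosome 3, 4986339 to 4987150, 1659 bp from the record, with a signal value of 4.96 and a −log10 q of 1.18 for H3K27ac. Within 50 kb of GATA3 lay 4 BHLHE40 regions, of which 1 was a member: chromosome 10, 8059860 to 8061039, inside the GATA3 record, with a signal value of 12.3, 236 bp from an annotated start and 6498 bp from the nearest GATA3 summit. By assignment to the nearest gene, with no limit of distance, GATA3 had 3 members of 21 BHLHE40 regions. Of the 7 BHLHE40 regions within 50 kb of CD69, an early activation antigen gene, and the 5 within 50 kb of TAL1, a leukaemia oncogene of the T lineage, none was a member.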

How the data were processed

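ChIP-seq of 38 samples in 19 groups of 2 was represented by 3 deposited peak lists, for BHLHE40, GATA3 and H3K27ac in control lentivirus cells. Samples were grouped by their titles. Bases were called with bcl2fastq 2.20, peaks came from MACS2, and the build was hg38, per the submitters' processing notes. The aligner, the MACS2 version, read filters and any use of an input control are not given in the sources used here. The authors' score per factor peak ran from 540 to 1000, the range of a measure of irreproducible discovery rate with a threshold of 0.05 across the 2 samples, whereas the H3K27ac list is of pooled samples by its name. The signal value and the −log10 p and q of each peak are the authors' deposited values, and they rank, filter or describe peaks of 1 list at a time. What the signal value is relative to is not given. Depth is unknown.

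The rule was applied to the lines as deposited, with RefSeq gene records of GRCh38.p14 (59716 on chromosomes, 20050 protein-coding). Coordinates are 1-based. Starts and sequences came from the RefSeq promoter table of the same build, in which chromosome 8 is not used here. Members on scaffolds where the table places no gene record (6) were kept and left out of shares that need a gene. A start within a record counts as annotated wherever it lies.

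The members and the gene lists were chosen with earlier results of these data known. Named regions were the 10 members with the highest signal value, the 3 widest, and the strongest at each named gene. Named genes were the 10 with most members, up to 4 per list with most members, and CD69, BHLHE40, GATA3 and TAL1; genes whose sequences are shown, and the longest runs, were chosen after their values were seen. A few regions and genes that these rules select are not reported here. Of the listed genes, ORAI1 and FBXL21 matched no protein-coding record. Alternatives changed each condition of the rule in turn. No test between groups was made. Overlap, distance and interval functions were tested on simulated data. Scripts ran under Python 3.11.15 (numpy 2.4.6, scipy 1.17.1, pandas 2.3.3; figures with matplotlib 3.10.9).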

Additional observations from a re-analysis of the deposited data

How the results depend on the processing

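Of 52 alternative values for 7 results, 29 stayed inside the interval of the reported value (for the number of members, within 1.5 times of it). Requiring gene record ends more than 5 kb away gave 2608 members. The median BHLHE40 signal value was 8.86 with a score of at least 830 and 8.00 with an H3K27ac −log10 q of at least 5. The median distance to a GATA3 summit was 15230 bp with no GATA3 region within 500 bp. The share of summits inside an H3K27ac region was 73.3% when H3K27ac regions had to reach a −log10 q of 5. The share of members with another within 10 kb was 14.1% with the score minimum, 14.2% with the q minimum, 12.1% with the summit inside H3K27ac, 14.4% at 5 kb from record ends and 17.9% with ends of protein-coding records only. It was 10.2% for a distance of 5 kb and 41.0% for 50 kb. The share of protein-coding genes with a member was 11.2%, 10.8%, 10.9%, 9.63% and 16.9% under those same 5 changes of the rule, 14.4% with no GATA3 region within 500 bp, 29.8% for any gene within 50 kb of a member, and 10.3% for summits inside the record. Leaving out members within 1 kb of an annotated start was chosen after seeing the data; it gave 70.2% inside a gene record, 65.1% of summits inside H3K27ac and 13.3% of protein-coding genes with a member.

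No paired analysis was possible because the lists hold no value for single samples, only for their group of 2; for the same reason leaving out each replicate could not be run. With sequencing depth unknown, whether a region missing from the GATA3 list was unbound or below detection cannot be told apart.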

Other observations

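Members took different shares of the BHLHE40 regions of each chromosome. They were 21.4% (95% Wilson interval 18.3 to 24.8) on chromosome 22, 20.9% (18.7 to 23.3) on chromosome 19, 20.7% (16.5 to 25.6) on chromosome 21 and 18.8% (16.1 to 21.8) on chromosome 20, and 12.2% (10.4 to 14.1) on chromosome 5, beside 15.7% of the whole list. Per 100 protein-coding genes, chromosome 13 had 29.6 members, chromosome 22 had 28.6, chromosome 19 had 17.8, the X chromosome 14.7 and chromosome 11 had 14.0. These are counts within 1 list with no test.

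The member with the highest H3K27ac −log10 q, 2868, was also the one with the lowest BHLHE40 signal value, 1.70, although its own BHLHE40 −log10 q was 183. It lies on chromosome 3 (93470463 to 93470756), 373184 bp from the nearest gene record end. The next, on chromosome 1 (16904488 to 16905815) near CROCC, had an H3K27ac −log10 q of 1815 and a BHLHE40 signal value of 17.7. Of the 6 members on unplaced scaffolds, the one on KI270467.1 had a BHLHE40 signal value of 1.86 and an H3K27ac −log10 q of 185.7. Whether read mapping plays a part at these places was not tested.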
